A study of Caenorhabditis elegans with 12 samples.

Results

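Wild-type hermaphrodites of Caenorhabditis elegans were compared with a pool of worms of mixed stages, on the 6 of 12 arrays of the series that carried untreated control samples. The arrays were taken by their titles, as control N2 replicates 1 to 6. The other 6 arrays carried worms kept on 10 mM lithium chloride and were not used. N2 is the standard laboratory strain. Per the labels, the control worms grew at 20 °C from the egg onward and were then moved to 25 °C for 48 h without lithium. Each sample was 50 picked hermaphrodites, and the 6 samples were grown and harvested separately. RNA of each sample was amplified in 1 round, and 5 µg of the amplified RNA was labelled with the dye Cy5. The same array received the reference, an N2 pool of mixed stages labelled with Cy3. It is described as total RNA, and the sources used here do not say if it was amplified. The labels do not name the stage of the control worms, so they are called control worms here.

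A mixed-stage pool can hold embryos, larvae and adults together. In C. elegans an adult hermaphrodite carries a large germ line that makes sperm first and oocytes later, and germ granules, meiotic chromosome proteins and maternal products belong to that tissue. The larval and adult body holds neurons, which release many small peptides, and a muscular pharynx lined with a cuticle, which is built anew at each moult. A ratio of control worms to the pool therefore compares a picked population with the average over stages.

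Each probe had a processed log ratio on each array, read as the control sample over the reference. This direction is likely rather than stated and rests on the dyes in the labels. Neither the base of the logarithm nor any scaling is stated. The interquartile range was 1.34 on each of the 6 arrays, which may reflect a division by the array's spread before deposit, and values are given in deposited log ratio units with no fold changes. A value of 0 marks the centre of an array rather than equal amounts of RNA, and array medians lay between 0.03 and 0.04. The samples always carried Cy5 and no dye swap is named, so the dye, the amplification and the difference in RNA source cannot be told apart in any probe. The reference has no replicate of its own, so its spread is left out of every test. In whole worms, fewer cells of a type and less RNA per cell cannot be told apart.

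Values were present for 22370 probes, and 22127 of them had a value on all 6 arrays. Pairwise correlations of the arrays across probes ran from 0.634 to 0.779, with a median of 0.731 over 15 pairs. Replicate 5 stood apart. Its correlation with the mean of the other arrays was 0.728, against 0.806 to 0.849 for the rest, and it carried the largest mean absolute deviation, at 0.546 units. A gene name was available for 8757 probes, which stand for 8187 genes, and 13613 probes are unnamed here. Many classical names, those of the yolk proteins among them, were not analysed here, and no marker of adult stage outside the lists given later was used.

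The question put to every probe was whether its log ratio differed from 0 across the 6 control arrays. Of all probes, 6120 were called above 0, or 27.4%, and 5974 were called below 0, or 26.7%. A probe was called when the adjusted p of limma's moderated test, corrected over all probes after Benjamini and Hochberg, was under 0.05. Without replicate 5 the counts were 6100 above and 5991 below. The calls reached further below 0 than above it. The called probes had a median of 0.82 above 0 and of -1.11 below 0. At least 1 unit above 0 lay 2090 called probes, or 9.34%, against 3361 at least 1 unit below 0, or 15%. Beyond 2 units the counts were 152 above and 1037 below, and beyond 3 units they were 15 and 279. Without any model, 5692 probes lay above 0 on all 6 arrays, which is 25.7% of those with 6 values, and 5613 lay below 0 on all 6, or 25.4%. Among the named genes, with 1 probe each, 2312 were called above 0, or 28.2%, and 2160 below 0, or 26.4%. At least 1 unit from 0 lay 864 named genes above, or 10.6%, and 1235 below, or 15.1%. The histogram of probe means shows the longer lower tail.

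**Figure D1:**
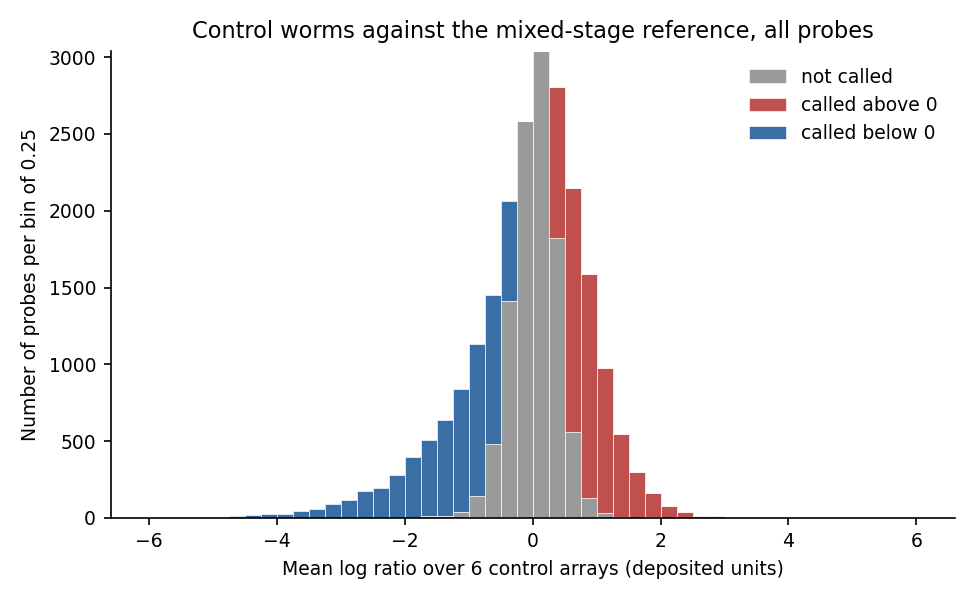
Number of probes (vertical axis) in bins of 0.25 of the mean log ratio over the 6 control arrays (horizontal axis, deposited units), with probes called above 0 in red, called below 0 in blue and not called in grey. The lower tail is the longer one, with 1037 called probes more than 2 units below 0 against 152 more than 2 units above.

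The gene with the highest mean was C10C5.3. Its log ratio had a lowest value of 3.46, a median of 4.07 and a highest of 4.20 over the 6 arrays, and its mean was 3.96 ± 0.29 (SD, n = 6). The test against 0 gave an adjusted p of 2.26e-06 in limma. T22B7.7 came next, with a mean of 3.92 ± 0.87 (SD, n = 6) and values from 2.64 on replicate 5 to 4.84 on replicate 1. Y48G9A.7 followed at 3.85 ± 0.41 (SD, n = 6). The remaining genes of the 15 highest were W06G6.11, C17C3.5, F46A9.1, F15B9.6, R03D7.2, F48C1.9, ZK418.6, Y47G6A.3, R03H10.6, F55G1.7, D1044.1 and T22B2.1. Their means ran from 3.43 down to 2.78. All 15 carry only a systematic name, and none is described further here. Every one of the 15 lay above 0 on all 6 arrays. The spread differed among them, with an SD of 0.21 units for F55G1.7 and of 1.26 units for F48C1.9.

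The lowest genes lay farther from 0 than the highest. Y47D7A.13 had a lowest log ratio of -5.60, a median of -4.86 and a highest of -4.59, with a mean of -4.95 ± 0.41 (SD, n = 6, adjusted p = 2.26e-06 in limma). Y105C5A.12 had a mean of -4.90 ± 0.55 (SD, n = 6) and F46F2.3 one of -4.60 ± 0.44 (SD, n = 6). C02E7.7 and C02E7.6, which are next to each other on chromosome V, had means of -4.38 and -4.34. On both of these genes replicate 4 was the lowest array. Their probes were not checked for shared sequence.

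Several of the 15 lowest genes carry names that tell a role. Phat-7, named for pharyngeal gland toxin-related proteins, had a mean of -4.14 ± 0.63 (SD, n = 6). Rips-1, whose name places it in the response to sulfide, had one of -4.31 ± 0.42 (SD, n = 6). A pair of enzymes of amino acid and propionate breakdown stood in the same group. The propionate shunt enzyme hphd-1 ran from -5.28 on replicate 3 to -3.11 on replicate 6, with a mean of -3.94. Aass-1, which starts lysine degradation, ran from -4.70 to -3.48 with a mean of -3.91. The other genes were H42K12.3, W10C8.5, C54D10.3, tpan-1, F09C8.1 and F53F1.4, with means from -4.24 to -3.92. Of the 15 lowest genes 8 are on chromosome V and 3 on X, while the 15 highest are spread over all 6 chromosomes with 2 or 3 on each. The 8 include the neighbours C02E7.7 and C02E7.6. Chromosome V holds 1823 of the 8187 named genes, and 315 of the 1235 called at least 1 unit below 0. Chromosome X holds 1239 and 277 of them. With 15 genes in each direction, no test of these counts was made.

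The lowest and the highest mean of all probes belonged to unnamed ones. Probe 7506 had a mean of -5.48 ± 0.34 (SD, n = 6) and probe 2178 one of -5.30. The next unnamed probes, at -4.95 and, for probe 15304, at -4.81, lay close to the lowest named genes. Above 0, probe 12424 had a mean of 5.01 ± 0.62 (SD, n = 6), followed by probe 3148 at 3.94, probe 19911 at 3.80 and probe 12949 at 3.40. Unnamed probes were called at close to the same rates as named ones, with 26.75% above and 27.37% below 0.

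Genes were then read in 38 lists built from gene names, by role or family, of which 28 had at least 3 named genes. The lists were chosen with earlier results of these data known. In 7 of the 28 a majority of the genes was called above 0, and in another 7 a majority was called below. The next paragraphs give the germ line first, then the body's signalling and feeding structures, then metabolism and nuclear functions. A list's count from the test against 0 stands against the 28.2% of named genes called above 0 and the 26.4% called below. Its median stands against one of 0.07 units over all named genes. Some lists were also tested against a minimum offset of 0.5 units in place of 0. Those counts stand against 2613 of 22370 probes called above and 3505 below at that setting. The shares were then 14.21% above and 14.24% below among autosomal named genes, and 6.618% and 22.2% among X genes.

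**Figure D2:**
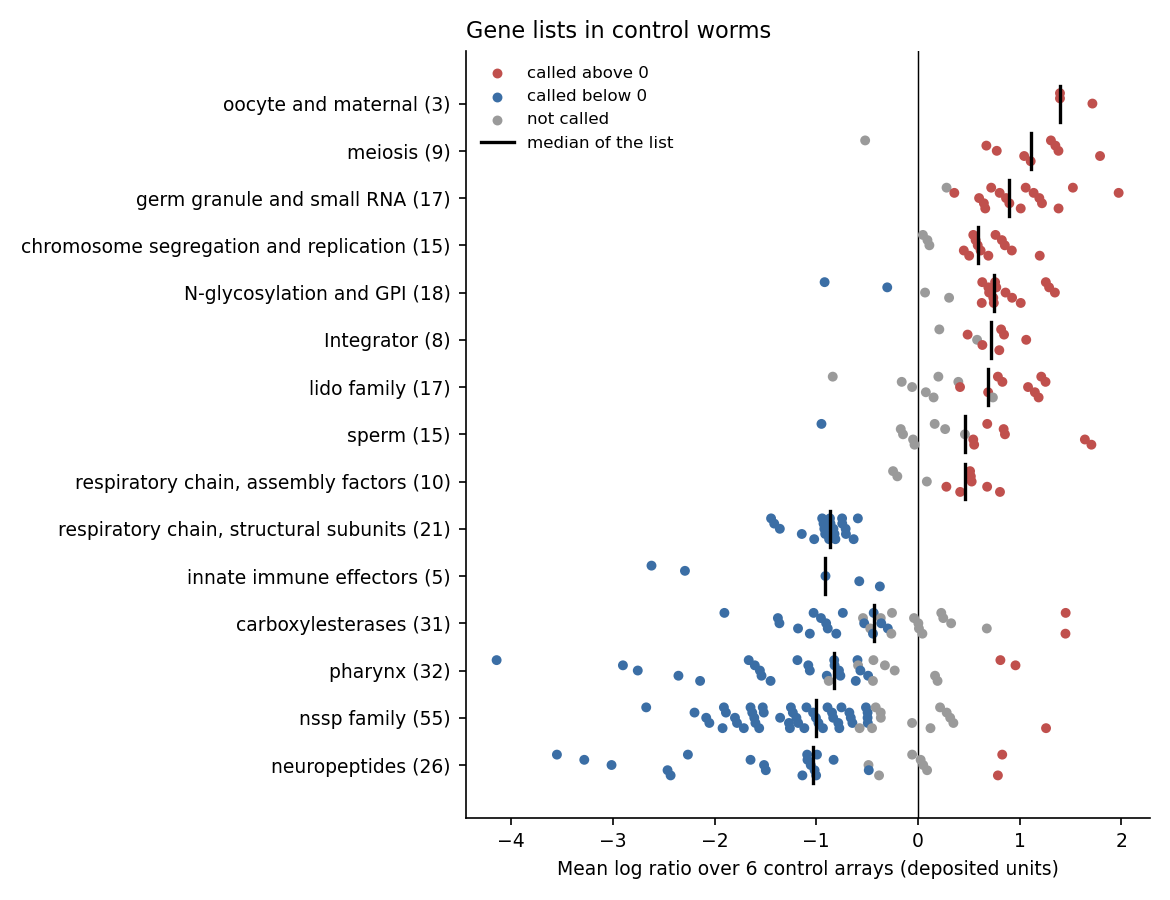
Mean log ratio over the 6 control arrays (horizontal axis, deposited units) of each gene in 15 lists, with the number of genes in brackets, red and blue points for genes called above and below 0, grey points for genes not called and a black bar for the list's median. Medians run from 1.40 for the maternal genes to -1.03 for the neuropeptides, and the 21 respiratory chain subunits all lie below 0. The respiratory chain list was split after the values were seen.

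Genes of the germ line lay mainly above 0. The 3 maternal genes memi-1, memi-2 and memi-3, whose products act in the egg at the end of meiosis, were all called above 0. Memi-3 had a lowest value of 1.33, a median of 1.62 and a highest of 2.46, with a mean of 1.72 ± 0.40 (SD, n = 6, adjusted p = 7.45e-05 in limma). Memi-1 and memi-2 both had a mean of 1.40, and a second probe of each gave 1.38 and 1.48. The 3 genes are close relatives, so their probes may not be independent of one another.

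Meiotic genes followed the same direction, with 8 of 9 called above 0, 0 below and a list median of 1.11. Syp-5 and syp-6 encode parts of the synaptonemal complex, the structure that joins paired chromosomes. Syp-5 had a lowest value of 1.39, a median of 1.82 and a highest of 2.07, with a mean of 1.79 ± 0.23 (SD, n = 6, adjusted p = 1.39e-05 in limma). Syp-6 had a mean of 1.38 ± 0.21 (SD, n = 6). All 6 arrays lay above 1 unit for both genes. Of the RING finger genes that regulate crossovers, zhp-2 had a mean of 1.35, zhp-4 one of 1.31 and zhp-1 one of 1.11. The exception was dsb-3, needed for meiotic double-strand breaks, which was not called. Its values ran from -2.41 to 0.75 with a mean of -0.52 ± 1.13 (SD, n = 6), the widest spread in this list.

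Germ granules are RNA and protein bodies around germ nuclei where small RNAs are made and inherited. Of the 17 genes of germ granules and small RNA pathways, 16 were called above 0 and 0 below, with a median of 0.90 and array medians from 0.76 to 1.06. Enri-2, a gene of nuclear RNA interference, was the highest. It had a lowest value of 1.67, a median of 1.93 and a highest of 2.44, with a mean of 1.97 ± 0.30 (SD, n = 6, adjusted p = 1.71e-05 in limma). It is also the only member of this list on chromosome X. Its namesake enri-1 was the member that was not called, at 0.28 ± 0.44 (SD, n = 6). Pid-5, of the piRNA pathway, had a mean of 1.38, snpc-1.4 one of 1.52 and edg-1 one of 1.19. The list also took in picd-1 by name, at a mean of 1.22, although it is named for a partner of the Wnt pathway protein PRY-1. Without picd-1, a trimming made after the values were seen, 15 of 16 genes were called above 0, with a median of 0.88. When a minimum offset of 0.5 units was required in place of 0, 10 of the 17 were called. Without replicate 5, 15 of the 17 were called above 0.

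**Figure D3:**
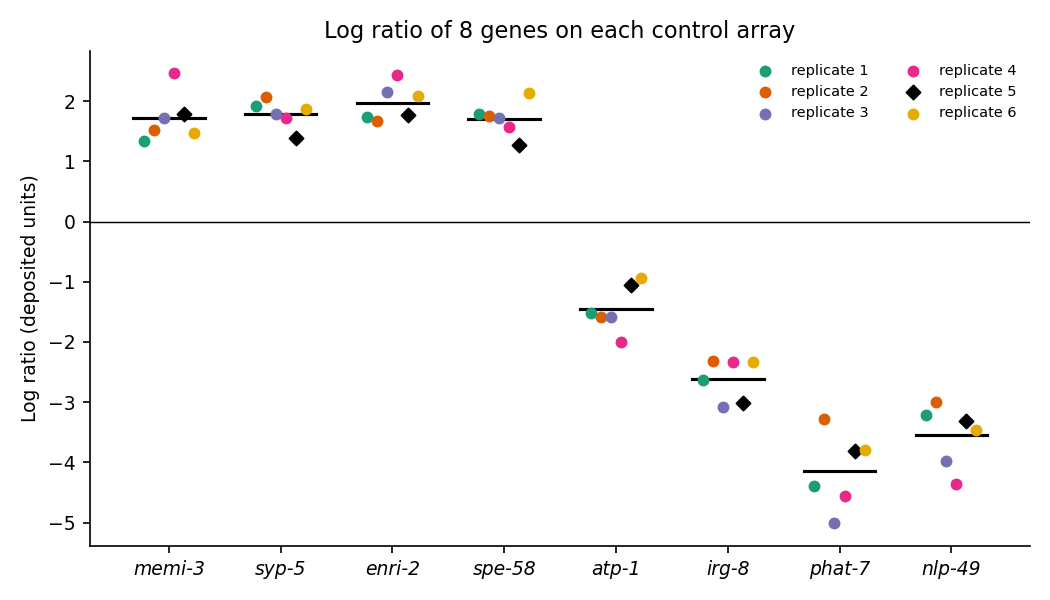
Log ratio (vertical axis, deposited units) of 8 genes on each of the 6 control arrays, with replicate 5 as a diamond and the mean as a black line, for the member farthest from 0 in 8 lists. Memi-3, syp-5, enri-2 and spe-58 lie above 0 on all 6 arrays, and atp-1, irg-8, phat-7 and nlp-49 lie below 0 on all 6.

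Genes of chromosome copying and segregation were nearer to 0. Of 15 genes, 12 were called above 0 and 0 below, with a median of 0.59. The list also took in the nucleoporin genes npp-24, npp-25, npp-26 and npp-27 by name. No role of theirs in chromosome copying or segregation is stated here. The highest of the list was npp-26 at 1.20 ± 0.49 (SD, n = 6). Tipn-1, whose product travels with the replication fork, had a mean of 0.92. The catalytic subunit of DNA polymerase zeta, rev-3, had a mean of 0.85, and the DNA polymerase epsilon subunit pole-4 had one of 0.83. Npp-24, npp-25 and the DNA polymerase alpha subunit pola-1 were not called, with means from 0.05 to 0.11. With a minimum offset of 0.5 units, 4 of the 15 were called.

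Sperm genes were divided. Of 15 genes, 7 were called above 0 and 1 below, with a list median of 0.46. Spe-58 had a lowest value of 1.27, a median of 1.73 and a highest of 2.14, with a mean of 1.71 ± 0.29 (SD, n = 6, adjusted p = 2.73e-05 in limma). Spe-36, a secreted sperm protein needed for fertilization, had a mean of 1.64 ± 0.65 (SD, n = 6), with its lowest value of 0.44 on replicate 4. Spe-51, another secreted sperm protein, was not called and ran from -1.17 on replicate 5 to 2.07 on replicate 6. The tubulin kinase-like gene ttbk-7 was the member called below 0, at -0.95 ± 0.23 (SD, n = 6). The arrays lay far apart in this list. The median of the 10 genes named spe was 0.03 on replicate 5 and 1.54 on replicate 6, while that of the meiotic genes stayed between 0.98 and 1.42 on all 6 arrays. Against a minimum offset of 0.5 units, 2 of the 15 sperm genes were called above 0.

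The uterine lumen genes, named for products found in the uterus or spermatheca, split into pairs. Ule-1 ran from 1.51 to 2.14 with a mean of 1.97 ± 0.23 (SD, n = 6), and ule-4 had a mean of 1.00 ± 0.40 (SD, n = 6). Ule-3 had a mean of -1.07 ± 0.29 (SD, n = 6) and ule-5 one of -0.44 ± 0.22 (SD, n = 6). No array crossed 0 in any of the 4 genes.

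Neuropeptide genes lay mainly below 0. Of 26 genes, 18 were called below 0 and 2 above, with a median of -1.03 and array medians from -1.10 to -0.84. Nlp-49 was the lowest, with a lowest value of -4.36, a median of -3.38 and a highest of -2.99. Its mean was -3.55 ± 0.52 (SD, n = 6, adjusted p = 7.73e-06 in limma). Nlp-80 had a mean of -3.28 and nlp-71 one of -3.01, and all 6 arrays lay more than 2 units below 0 for each of these 3 genes. Nlp-50 and nlp-55 had means of -2.46 and -2.43. Lury-1, a peptide precursor of pharyngeal neurons linked to feeding and egg laying, had a mean of 0.79 ± 0.61 (SD, n = 6), and nlp-60 one of 0.83 ± 0.50 (SD, n = 6). Both lay above 0 on all 6 arrays, and the call of lury-1 was lost without replicate 2, at an adjusted p of 0.0554 in limma. Where an offset of at least 0.5 units was required, 14 neuropeptide genes were called below 0 and 0 above.

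The receptors for such peptides were mostly not called. Of 10 genes, 3 were called below 0 and 0 above, with a median of -0.30. Npr-39 had a mean of -1.43 ± 0.43 (SD, n = 6), npr-45 one of -1.11 ± 0.44 (SD, n = 6) and npr-37 one of -0.28. The call of npr-37 was lost without any 1 of the 6 arrays, with adjusted p from 0.0601 to 0.13 in limma. Of 3 genes of channels and synapses, the potassium channel subunit kvs-2 was called at -1.33 and lgc-45 at -0.61, while the glutamate receptor glr-9 was not called at a mean of 0.0032.

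A list matched on the letters of chemoreceptor names held 31 genes, with 15 called below 0 and 5 above and a median of -0.56. Most of them, 22, are named srlf, and the list also took in srf genes, which are surface antigen genes rather than receptors. Srlf-32 was the lowest, at -3.54 ± 0.49 (SD, n = 6). Above 0, srdf-3 had a mean of 1.22 and srlf-16 one of 1.15.

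Pharynx genes were also mainly below 0, with 22 of 32 called below and 2 above and a median of -0.82. The list joins 2 phat genes of the pharyngeal glands with 28 genes named for intrinsically disordered proteins, a class linked to the pharyngeal cuticle. It also took in phlp-2 and pqn-15 by name, for which no role in the pharynx is stated here, and neither was called. Phat-7 had a lowest value of -5.01, a median of -4.10 and a highest of -3.27 (adjusted p = 7.9e-06 in limma). Phat-8 had a mean of -2.75 ± 0.55 (SD, n = 6). Replicate 3 was the lowest array and replicate 2 the highest for both. Among the disordered proteins, idpp-15 had a mean of -2.90, idpp-16 one of -2.35 and idpp-1 one of -2.14, and 20 of the 28 were called below 0. Idpc-5 and idpp-2 were called above 0, at 0.96 and 0.81. Idpc-5 was at -0.47 on replicate 5 and its call was lost without replicate 3, at an adjusted p of 0.0503 in limma. Tested against 0.5 units in place of 0, 11 of the 32 were called below 0.

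Muscle was represented by 2 calponin-like genes, clik-2 and clik-3, which had means of -1.65 ± 0.28 and -1.78 ± 0.30 (SD, n = 6). Both were called below 0. Cubn-1, related to the endocytic receptor cubilin, was called at -1.92 and the patched-related gene ptr-25 at -0.31. The call of ptr-25 was lost without any 1 of the 6 arrays. Of the claudin-like genes, whose relatives seal epithelial junctions in mammals, 7 of 17 were called below 0 and 2 above, with clc-11 the lowest at -2.99 ± 0.63 (SD, n = 6).

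The 5 genes of innate immune defence were all called below 0, with a median of -0.91. Irg-8, an infection response gene, had a lowest value of -3.08, a median of -2.49 and a highest of -2.32, with a mean of -2.62 ± 0.35 (SD, n = 6, adjusted p = 8.21e-06 in limma). Irg-5, another infection response gene, had a mean of -2.29 ± 0.27 (SD, n = 6). Irg-4 lay nearer to 0 at -0.91, and the saposin-like genes spp-31 and spp-24 at -0.58 and -0.37. The call of spp-24 was lost without replicate 1, 3, 4, 5 or 6, with adjusted p from 0.0571 to 0.0768 in limma. The pals genes, a large family of which some members respond to intracellular infection, did not follow one direction. Of 24, 3 were called above 0, 6 below and 15 not at all, with pals-32 the lowest at -1.33 and pals-1 the highest at 1.13. Pals-1 was at -0.52 on replicate 6, and its call was lost without replicate 1, 2, 4 or 5, with adjusted p from 0.0518 to 0.0581 in limma. With a minimum offset of 0.5 units, 2 of the 5 immune genes were called below 0.

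The respiratory chain, the set of protein complexes by which mitochondria make ATP, fell into separate groups by role. This split by name was made after the values were seen. All 21 genes of structural subunits were called below 0, with means from -1.44 to -0.59 and a median of -0.87. Atp-1, the alpha subunit of ATP synthase, had a lowest value of -2.0, a median of -1.55 and a highest of -0.94, with a mean of -1.44 ± 0.39 (SD, n = 6, adjusted p = 1.53e-04 in limma). The cytochrome c oxidase subunits cox-7C and cox-4 had means of -1.41 ± 0.52 and -1.36 ± 0.16 (SD, n = 6). Ndub-3, a subunit of complex I, had a mean of -1.14 ± 0.29 (SD, n = 6). The median of the 21 subunits was -0.70 on replicate 1 and -1.16 on replicate 5.

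The assembly factors, which help to build the complexes but do not stay in them, lay on the other side. Of 10 genes, 7 were called above 0 and 0 below, with a median of 0.46 and array medians from 0.24 to 0.60. The complex I assembly factor nuaf-5 had a mean of 0.81 ± 0.20 (SD, n = 6) and a lowest value of 0.59. Coa-5, of cytochrome c oxidase assembly, had a mean of 0.68 ± 0.50 (SD, n = 6), and the copper chaperone cox-19 one of 0.53 ± 0.37 (SD, n = 6). The call of cox-19 was lost without replicate 1 or 3, with adjusted p of 0.0569 and 0.0502 in limma. Coa-3, coa-4 and cox-18 were not called, at -0.24, -0.20 and 0.09. The highest structural subunit, at -0.59, lay below the lowest assembly factor, at -0.24. Since the split was made after the values were seen, this gap is a description and no test. Against a minimum offset of 0.5 units, 11 of the 21 subunits were called below 0 and 1 of the 10 assembly factors above. None of the 31 genes is on chromosome X.

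**Figure D4:**
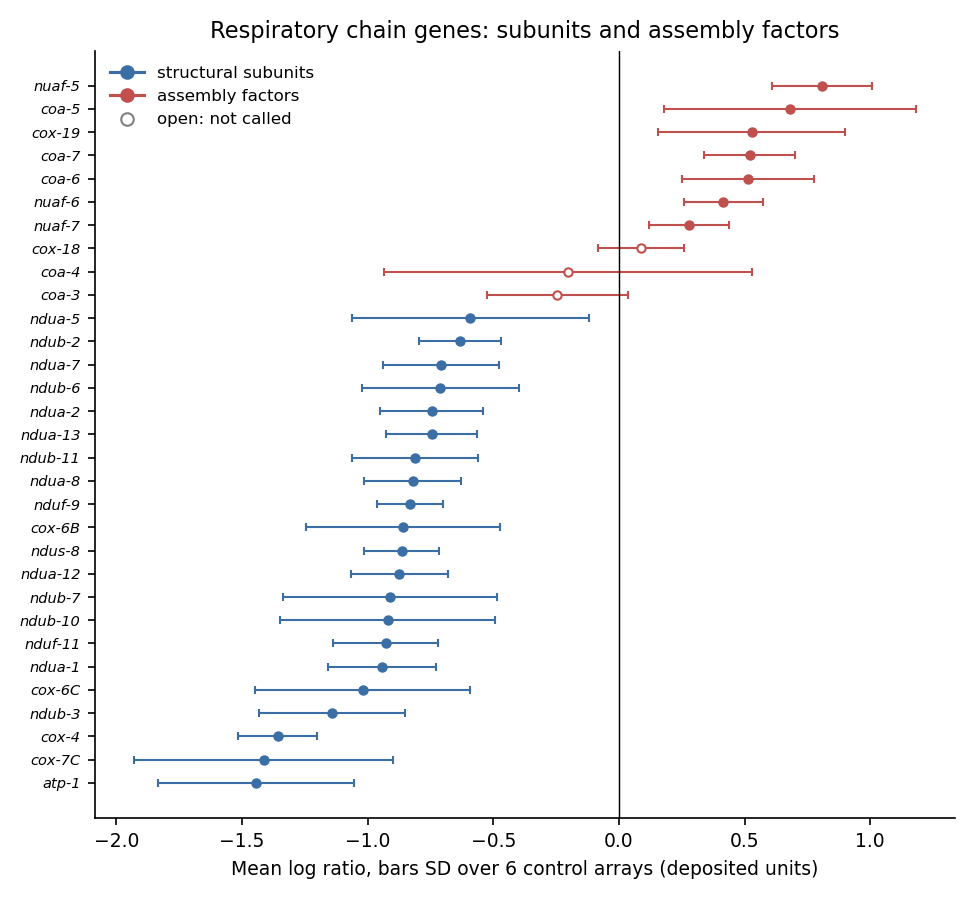
Mean log ratio (horizontal axis, deposited units) with bars of 1 SD over the 6 control arrays for 21 structural subunits (blue) and 10 assembly factors (red) of the respiratory chain, open points marking genes not called. The subunits lie between -1.44 and -0.59, and the assembly factors between -0.24 and 0.81. The split into these groups was made after the values were seen.

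Other mitochondrial genes did not share one direction. Of 8 genes of import and translation, 2 were called above 0 and 2 below. Timm-17B.2, of the inner membrane import channel, had a mean of 1.93 ± 0.27 (SD, n = 6), while timm-17B.1 was at -0.59 and the import receptor tomm-70 at -0.66. Mrpl-48, of the mitochondrial ribosome, was called above 0 at 0.31, and its call was lost without any of replicates 1, 3, 4, 5 and 6.

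Genes of transport and lipid metabolism were mixed. Of 39 solute carriers, 13 were called above 0 and 12 below. The balance turned to more below than above without replicate 2, at 12 and 13, and without replicate 3, 4 or 6, at 11 and 12 each. The lowest was slc-5A12 at -2.79 ± 0.40 (SD, n = 6), of the sodium-coupled carrier family. Slc-25A10, of the mitochondrial carrier family, had a mean of -2.25 ± 0.28 (SD, n = 6), and slc-25A18.2 of the same family one of 1.43 ± 0.42 (SD, n = 6). Of 5 genes of fatty acid metabolism, acox-1.6 was called at -0.47 and acox-1.4 at 0.42, both of them acyl-CoA oxidases. Acox-1.4 has 3 probes, and another of them was called below 0 at -0.78, so its direction is not settled. Of 31 carboxylesterases, 16 were called below 0 and 2 above, with a median of -0.43. Cest-35.2, cest-5.2 and cest-6 were not called on the probe read. Another probe of each was called below 0, at -0.85, -0.87 and -0.91. Cest-1.1 was the lowest at -1.90 ± 0.41 (SD, n = 6). Cest-15 had a mean of 1.45 ± 0.38 (SD, n = 6), and cest-7 reached the same mean with an SD of 1.18 units. Cest-7 was at -0.87 on replicate 5 and its call was lost without replicate 2 or 3, with adjusted p of 0.0509 and 0.0517 in limma. Where an offset of at least 0.5 units was required, 7 carboxylesterases were called below 0 and 1 above. The UDP-glucuronosyltransferases ugt-66 and ugt-67, of a class that conjugates foreign and internal compounds, were called above 0 at 1.53 and 0.73. The call of ugt-67 was lost without replicate 3, 4 or 6.

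Genes for general transcription and splicing lay mainly above 0. The list as first written held 48 genes, with 26 called above 0 and 11 below. Of those called below, 10 were txt genes, which the list took in by name and for which no role in transcription is stated here. Without the txt genes, a trimming made after the values were seen, 25 of 33 genes were called above 0 and 1 below, with a median of 0.58. Gtf-2E1, a subunit of the general transcription factor TFIIE, had a mean of 1.27 ± 0.37 (SD, n = 6), and gtf-2H2C, of TFIIH, one of 1.25 ± 0.27 (SD, n = 6). The lone gene below 0 was gtf-2A2, of TFIIA, at -0.91 ± 0.21 (SD, n = 6). The Integrator complex cuts nascent RNAs such as those of the spliceosome. Of its 8 named subunits, 6 were called above 0 and 0 below, with ints-8 the highest at 1.06 ± 0.28 (SD, n = 6). Tested against 0.5 units in place of 0, 11 of the 48 genes as first written were called above 0 and 7 below. Of the 33 genes left after trimming, 11 were called above and 1 below at that setting.

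Few genes of protein synthesis lay far from 0. Of 18 genes of ribosome biogenesis, 8 were called above 0 and 2 below, with a median of 0.27. Ddx-10, an RNA helicase, was the highest at 0.96. Nol-56, of the nucleolus, was called below 0 at -0.76, and nol-53 at -0.88 on one probe and 0.46 on another, so that its direction is not settled. Of 7 translation initiation genes, 2 were called above 0, eif-2D at 0.67 and eif-2Bepsilon at 0.32. Eif-4A3 was not called on the probe read, at 0.25, but another of its probes was called above 0 at 0.88. The call of eif-2Bepsilon was lost without replicate 1, 2, 3, 4 or 5.

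Genes that build sugar chains and membrane anchors for secreted and surface proteins lay above 0 in 14 of 18 cases and below in 2, with a median of 0.74. Algn-8, a glucosyltransferase of N-glycan assembly, ran from 1.24 to 1.57 with a mean of 1.35 ± 0.13 (SD, n = 6, adjusted p = 2.09e-05 in limma). Of the 11 genes of the glycosylphosphatidylinositol anchor, 9 were called above 0. Pigg-1 had a mean of 1.29 ± 0.18 (SD, n = 6) and gpap-1 one of 1.26 ± 0.22 (SD, n = 6). Pigx-1 and pigq-1, named for the same pathway, were the 2 called below 0, at -0.92 and -0.30. The call of pigq-1 was lost without replicate 2, 3, 4, 5 or 6, with adjusted p from 0.0596 to 0.0825 in limma. With a minimum offset of 0.5 units, 6 of the 18 were called above 0 and 0 below.

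Some large families are known mainly by name. Of 55 nssp genes, 43 were called below 0 and 1 above, with a median of -1.0 and array medians from -1.09 to -0.86. Nssp-25 was the lowest, at -2.67 ± 1.07 (SD, n = 6), and nssp-7 was the lone one called above 0, at 1.26 ± 0.48 (SD, n = 6). Against a minimum offset of 0.5 units, 27 of the 55 were called below 0. Of 54 gtnt genes, 4 were called above 0 and 11 below, with a median of -0.03. Its means ran from -1.87 to 1.63, and 7 of the genes called below 0 lay at least 1 unit below. Without replicate 5, 3 gtnt genes were called above 0 and 15 below. Of 17 lido genes, 9 were called above 0 and 0 below, with a median of 0.69 and lido-1 the highest at 1.25 ± 0.31 (SD, n = 6). Of these 17 genes, 5 have several probes. Lido-1 was called above 0 on both of its probes, while lido-12 and lido-14 were called on the probe read only. Lido-9 was also called on another probe, at 0.73, but not on the remaining one, at -0.48. Where an offset of at least 0.5 units was required, 6 lido genes were called above 0.

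The short lists gave single values. A list of cilia genes, made up mainly of tmem genes of other roles taken in by name, had 6 of 12 genes called below 0 and 2 above. The stem tmem has 9 named genes, with 4 called below 0 and 2 above. Of the ciliary genes in the list, dyf-4 and ift-43 had means of -1.09 and -0.46, and ift-139 was not called at -0.08. The proteasome subunit rpn-13 was called at 0.26, a call that was lost without any 1 of the 6 arrays, and the heat shock genes hsp-16.20 and hsp-16.21 were not called. The zinc finger gene ztf-31 was called at 1.38, while the ribosomal protein gene rpl-37.1 at -0.47 and the F-box gene fbxc-58 at 0.11 were not called.

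Smaller families were looked at by shared name stem, and those named here were chosen after their values were seen. Of 44 stems with at least 5 genes, 25 had more genes below 0 than above and 15 the reverse. Over all named genes, 28.2% were called above 0 and 26.4% below. Stems such as nssp, cest and nlp repeat families already read in the lists, so the stem counts are no separate result. All 6 bus genes, which shape the surface that bacteria attach to, were called below 0, with bus-5 the lowest at -2.66 ± 0.27 (SD, n = 6). All 5 ctsa genes, named for cathepsin A, were called below 0 with a median of -2.0. Of 5 hrg genes, of the heme response, 4 were called below 0, and of 15 spig genes 9 were. On the other side, 6 of 7 metl genes, named for methyltransferase-like proteins, were called above 0, and 5 of 8 rbm genes, named for RNA-binding motifs, with rbm-22 the highest at 1.68 ± 0.34 (SD, n = 6).

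Named genes were next grouped by chromosome. Chromosome X held 1239 named genes, of which 14.61% were called above 0 and 39.14% below, with a median of -0.28. On the autosomes together, 30.68% of 6926 genes were called above 0 and 24.16% below, with a median of 0.12. The median of the X genes lay between -0.32 and -0.21 on the 6 arrays and that of the autosomal genes between 0.09 and 0.14, so the ranges did not overlap. As background, some classes of genes that act in the C. elegans germ line are scarce on chromosome X. The part of the germ line in these shares was not tested. Among the autosomes, chromosome III had the highest share above 0, at 40.34%, followed by I at 37.82%. Chromosome V had the lowest autosomal share above 0, at 23.31%, and the highest share below, at 28.36%. Of the lists, 10 of the 26 neuropeptide genes, 8 of the 32 pharynx genes and 15 of the 55 nssp genes are on X, against 1 of the 17 germ granule genes and 0 of the 9 meiotic genes. Over all named genes, 1239 are on X against 6926 on the autosomes. At that rate the germ granule and meiotic lists, being small, would hold few X genes. Other lists did not follow that order, since 5 of the 17 lido genes, none of them called below 0, are on X, and 0 of the 5 innate immune genes, all called below 0, are. The part of list membership in the difference between chromosomes was not tested.

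**Figure D5:**
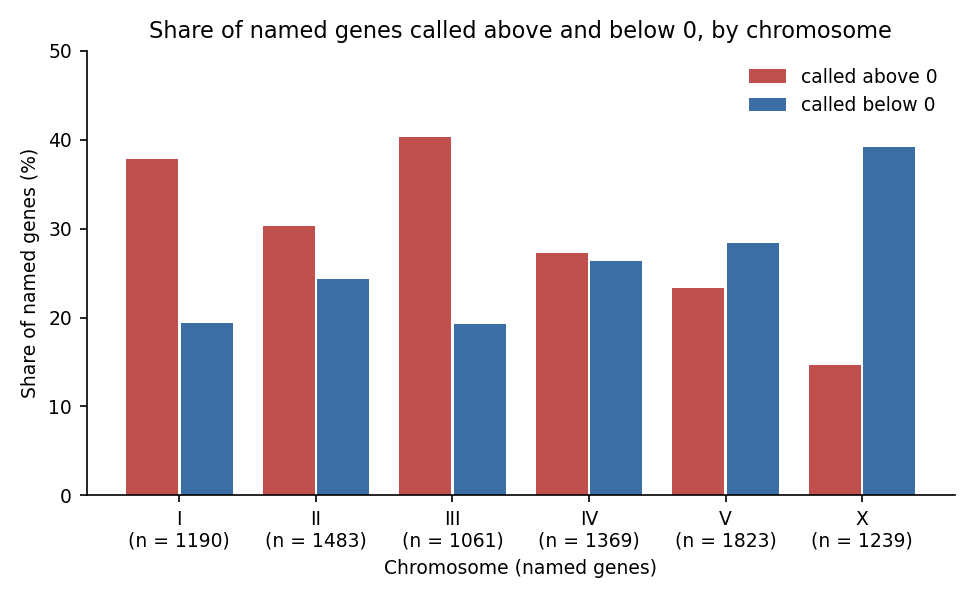
Share of named genes (vertical axis, percent) called above 0 in red and below 0 in blue on each chromosome (horizontal axis, with the number of named genes). Chromosome X has 14.61% above and 39.14% below 0, while chromosomes I and III have 37.82% and 40.34% above.

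The table also names pseudogenes. Of 553 genes annotated as pseudogenes, 27.12% were called above 0 and 8.68% below, against 28.3% and 27.75% of 7583 protein-coding genes. No test of these shares was made, since genes are not replicates.

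The spread over the 6 control arrays had a median SD of 0.41 units over probes, with quartiles of 0.25 and 0.66. In 6 of the 10 named genes of largest SD, 1 array lay far from the other 5. ZK354.8 had the largest SD of all named genes, 3.69 units, with -9.19 on replicate 5 and a median of -0.22. T06C12.11 was at 7.16 on replicate 3 with a median of 0.32, and F44D12.8 at 7.19 on replicate 5 with a median of 0.38. Y67A10A.3 and T22B2.3 instead had values far from 0 on both sides, from -5.35 to 5.05 and from -2.73 to 6.60. None of the 10 genes of largest SD was called. Genes with several probes give another measure of error. Of 467 such genes, 303 had all probe means on one side of 0. At least 1 probe was called in 307 of the 467, but all probes were called in 1 direction in only 114. In 12, probes were called in opposite directions. Across the 467 genes the correlation between first-probe and second-probe means was 0.636, which describes genes on shared arrays and is given with no test.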

How the data were processed

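The authors deposited 1 table with a processed log ratio per probe and array, taken as control (Cy5) over reference (Cy3). The deposited values were handled as values on a log2 or similar scale, since the sources used here do not give their normalization, log base or scaling. Names came from the platform annotation. The RefSeq table of WBcel235 matched 8724 of 8757 named probes by gene identifier and gave current symbols, chromosomes and neighbours. An intercept per probe was fitted on the deposited values in limma 3.58.1 under R 4.3.3 (lmFit, eBayes, two-sided, at least 4 arrays per probe) on the 6 control arrays. P-values were adjusted by Benjamini-Hochberg over 22370 probes. A gene was read from the probe with most values, then the lowest number. Named genes were the 15 highest and 15 lowest called genes, the 10 of largest SD, and up to 5 called members per list and direction. Members and lists were chosen with earlier results of these data known. Promoter motifs were not searched. The code was tested on simulated data. Figures used matplotlib 3.10.9. The number of arrays limits precision, and spot intensities were not used.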

Additional observations from a re-analysis of the deposited data

Results flagged for a closer look

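In 25 of 230 sets of 6 values, 1 array lay far from the other 5 by Dixon's test. The sets include the 10 genes chosen for their large SD, which gave 6 of the 25. Without them, 19 of 220 sets were marked, where chance gives about 1 in 20, or 11. The far array was replicate 5 in 10 sets, replicate 3 in 6, replicate 4 in 5 and replicate 2 in 4, and never replicate 1 or 6. The sets also include measures of whole arrays. The correlation with the mean of the other arrays and the mean absolute deviation are among the 10 sets of replicate 5. All sets share the same arrays and are not independent, so the number given by chance is a rough guide.

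On replicate 5 the far values were -0.869 for the carboxylesterase gene cest-7, -1.77 for the claudin-like gene clc-11, 0.542 for the transcription factor gene gtf-2E1, -0.982 for gtnt-16 and -0.744 for the sperm gene spe-54. The means of these genes over 6 arrays were 1.45, -2.99, 1.27, -1.87 and 0.86. Over all probes, the correlation of replicate 5 with the mean of the other arrays was 0.728, and its mean absolute deviation was 0.546.

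On replicate 3 the far values were -3.50 for the potassium channel gene kvs-2, -3.10 for nssp-63, -0.737 for ptr-25, 1.91 for snpc-1.4 and -0.925 for spp-24. On replicate 4 they were 1.86 for lido-7, -3.72 for nssp-72, 1.65 for pigg-1 and 1.31 for pigo-1. On replicate 2 they were -0.886 for txt-17, 1.51 for ule-1 and 2.38 for ztf-31.

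Among the genes of largest SD, none of them called, the far values were -9.19 for ZK354.8 on replicate 5, 7.16 for T06C12.11 on replicate 3, 6.75 for C04B4.6 on replicate 4, 7.19 for F44D12.8 on replicate 5, -5.92 for Y40H7A.7 on replicate 5 and 6.83 for F59E11.6 on replicate 2. The cause of these single values was not tested.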

How the results depend on the processing

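The counts over all probes were recomputed under 10 other settings and without each array in turn. Leaving out the probes in the lower part by spread gave 1381 above and 2079 below 0, with 843 and 1574 at least 1 unit away. The probes left out by that setting were those of small spread. Testing against a minimum size of 0.5 units gave 2613 above and 3505 below, left 3 lists with a majority above 0 and 1 with a majority below, where the reported counts were 7 and 7, and moved the X shares to 6.618% above and 22.2% below and the autosomal shares to 14.21% and 14.24%. With 1 array left out, the counts ran from 5501 to 6100 above, from 5510 to 5991 below, from 2042 to 2265 at least 1 above and from 3289 to 3463 at least 1 below. The lists then ran from 6 to 8 above and stayed at 6 below, the X shares from 12.91% to 15.09% above and from 35.43% to 39.63% below, and the autosomal shares from 27.45% to 30.36% above and from 22.37% to 23.97% below. Centring each array on its median gave 5831 above and 6196 below. When each gene was read as the mean over all its probes, 6 lists had a majority above 0 and 7 a majority below. Of 215 named genes, 151 were called under all 16 settings that gave a value and 191 without each array in turn, and no mean changed sign. These genes were picked as called in the reported fit, largest means first, on the same arrays. A change of sign was thus unlikely from the start, and its absence is no independent check. Of the counts for the 28 lists as first written, the balance of above and below turned in 5, all for the solute carriers, which had 7 above and 10 below at a minimum size of 0.5 units. All 30 of the highest and lowest genes were called throughout, which their choice as the most extreme called genes made likely. At a minimum size of 0.5 units 64 calls were lost, and at an adjusted p under 0.01 30 were lost. No paired analysis was possible because there was 1 group, so replicate numbers pair nothing. Promoter motifs were not run, since promoter sequences were not used here. The signal over background of a spot was not used here, so weak spots could not be set apart.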
